A study of Mus musculus with 192 samples.

Results

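Translation factor genes were followed across a grid of mouse brain voxels, small cubes of tissue named by their place on the grid. The group holds every measured gene whose symbol begins with Eif and a digit from 1 to 6, or with Eef and a digit of 1 or 2, which gave 51 genes of 15608 (8447 of these had a symbol). The 51 are the genes left after the filter on measured arrays, which 117 of their 121 probes passed. Genes with such symbols but no probe that passed are not counted here. The choice used symbols and no measured value, although the group was proposed with earlier results of these data known. The study set RNA from each voxel against RNA from whole brain on 2-colour arrays. All tissue came from C57BL/6 male mice of postnatal day 56 with no treatment given for any sample (the protocol for dye coupling also names LiCl-treated samples, which no sample label does), and whole brain of the same strain, sex and age was the reference. Per the labels, each voxel sample was RNA of pooled voxels; what was pooled is not stated. Voxels came from 68 grid positions, named by row (A to G) and column (1 to 11), and were harvested independently 3 times, which gave datasets 1 to 3 with 59, 68 and 65 arrays. The labels give no anatomical direction for the rows or columns.

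Protein synthesis starts when initiation factors bring the small ribosomal subunit, the initiator tRNA and the messenger RNA together. Elongation factors then deliver aminoacyl-tRNAs to the ribosome and move it along the message. In neurons and glia both steps are known points of control, for example in synaptic plasticity and in the response to stress. Messages for elongation factors and ribosomal proteins are known to share a regulatory element at their start, through which growth signals set their translation.

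Values are log2 ratios that had been centred on each gene's median before deposit, so they compare positions and hold no level relative to whole brain. A higher value likely means more RNA in the voxel, but the labels do not name the numerator of the ratio. Voxel RNA carried Cy3 in datasets 1 and 3 and Cy5 in dataset 2, so dye and dataset cannot be told apart. A value at a position is the deviation from the gene's mean in that dataset over the 56 positions present in all 3 datasets, given as mean ± SD over datasets with n = 3 unless stated. In voxels of mixed tissue, fewer cells of a type and less RNA per cell cannot be told apart. Of the striatal marker genes, 5 of the 6 measured differed among positions, and the striatal gene Ppp1r1b peaked at D9 and the choroid plexus gene Ttr at E7. Row D of dataset 2, columns 1 to 7, stood apart: over 300 genes on which datasets 1 and 3 were alike, 6 of its arrays correlated with them at a mean of -0.318 as labelled and at 0.645 in reversed column order, against a median of 0.53 for the other arrays of that dataset. In dataset 3 the arrays of G8, G3 and G6 had 41.5%, 20.4% and 15.1% of values missing or at the floor of the table. The counts of members and of all genes called, among positions and in the zone comparisons, were also taken without these arrays. The counts by role and by list, the maps and the rho values used all arrays.

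The first comparison asked which translation factor genes differed among positions. Eef1a1, Eef1b2 and Eef1g, which encode subunits of the complex that delivers aminoacyl-tRNAs, did so at an adjusted p under 0.05 (limma's moderated F over the 68 positions, datasets as blocks, Benjamini-Hochberg over all genes). They made up 3 of the 51 members, or 5.88%, against 4.92% of all genes, so the share of members called was near the background. At an unadjusted p under 0.05 there were 8 members (15.7%) against 13.3% of all genes. The calls fell on 3 of the 4 core elongation factors and on 0 of the 44 Eif genes, of which 4 (9.09%) had an unadjusted p under 0.05. At a share of 4.92% few of 44 genes would be called, so this 0 does not set the Eif genes apart. Eef1a2 and Eef1d are not among the 51 members, so the 4 core elongation factors are not the full set. Eef1a1 and Eef1g were also means of 9 and 7 probes, more than most Eif genes. The same 3 genes were called without the row D arrays and without the 3 arrays with the most missing values.

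**Figure D1:**
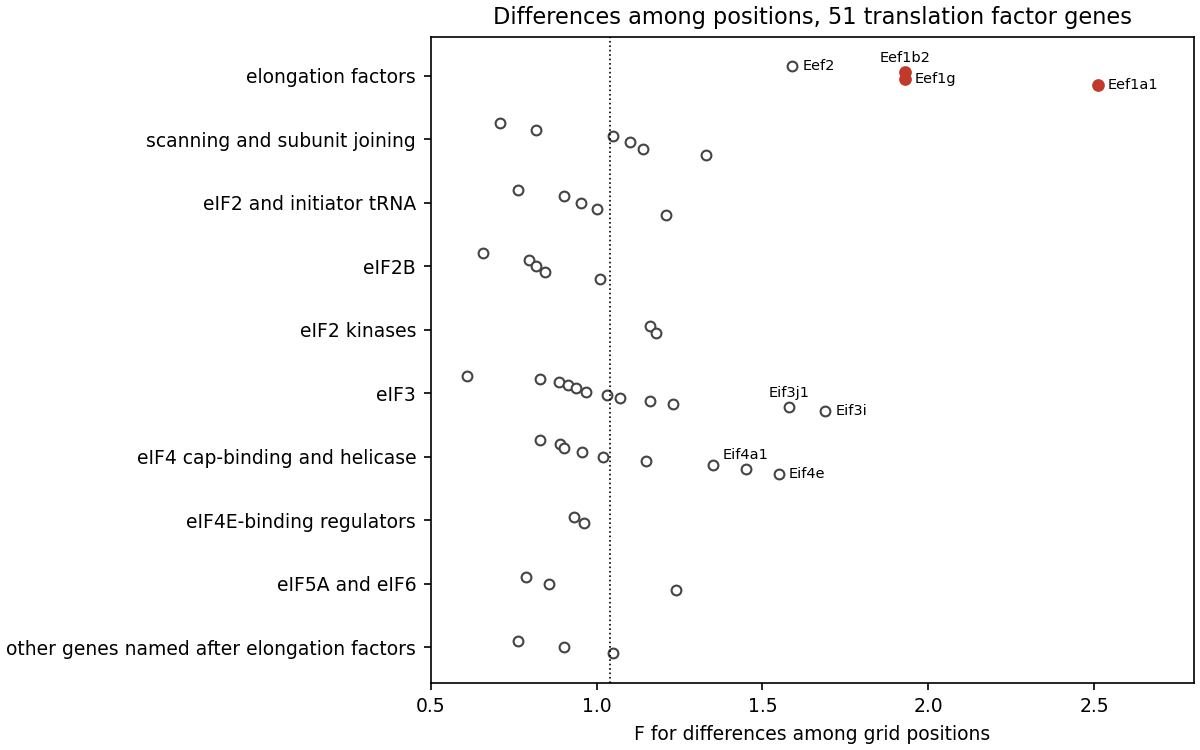
Each point is a translation factor gene, placed by its F for differences among grid positions (x axis, no unit) and by its role (y axis). Filled points had an adjusted p under 0.05 and the dotted line is the median F of all genes, 1.04. Eef1a1 lies farthest to the right at 2.51, and the 4 core elongation factors all lie at 1.59 or above.

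The promoters of the elongation factors are shown because the maps of these genes resembled each other, as given below. RefSeq promoter windows (GRCm38.p6) were matched by symbol for 42 of the 51 members, among them Eef1a1, Eef1b2 and Eef2; Eef1g had no match. Each is the stretch of 250 bases before the annotated start, read 5′ to 3′ on the gene's strand, with matches to the searched motifs in capitals. Eef1a1 lies at chr9:78481725-78481974 on the minus strand, Eef1b2 at chr1:63176581-63176830 on the plus strand and Eef2 at chr10:81176381-81176630 on the plus strand.
Eef1a1: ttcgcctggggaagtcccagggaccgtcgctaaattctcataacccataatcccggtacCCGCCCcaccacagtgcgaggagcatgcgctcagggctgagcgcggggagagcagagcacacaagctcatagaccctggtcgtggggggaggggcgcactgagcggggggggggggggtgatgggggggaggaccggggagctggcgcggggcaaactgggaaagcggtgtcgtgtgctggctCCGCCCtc
Eef1b2: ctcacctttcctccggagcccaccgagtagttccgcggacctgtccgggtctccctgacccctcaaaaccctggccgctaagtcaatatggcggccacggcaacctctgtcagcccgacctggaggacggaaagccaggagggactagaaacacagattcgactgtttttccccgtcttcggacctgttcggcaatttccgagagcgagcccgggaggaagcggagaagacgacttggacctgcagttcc
Eef2: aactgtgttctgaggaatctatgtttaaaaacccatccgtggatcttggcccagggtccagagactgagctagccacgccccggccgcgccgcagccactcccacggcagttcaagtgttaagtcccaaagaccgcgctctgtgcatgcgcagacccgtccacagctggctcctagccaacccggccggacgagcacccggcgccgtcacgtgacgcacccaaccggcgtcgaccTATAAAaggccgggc
The motifs were the TATA box (TATAAA), the CCAAT box (CCAAT), the GC box (GGGCGG) and an ETS core (CCGGAAG), each searched on both strands. Eef1a1 held 2 GC boxes on the opposite strand, beginning 191 and 8 bases before the start, and Eef2 held 1 TATA box beginning 15 bases before it. Eef1b2 held a match to none of the 4 motifs. Among 32851 windows of this length, 32.7% held the GC box, 12.4% the TATA box, 33.8% the CCAAT box and 6.91% the ETS core. Of the 250 bases 170 were G or C for Eef1a1, 151 for Eef1b2 and 157 for Eef2, against a median of 131 over these windows. The arrays give no measure of binding at these windows, so a match is a description of the letters only.

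Eef1a1, the GTP-binding factor that carries aminoacyl-tRNA to the ribosome, had the largest F of the members (2.51, adjusted p = 0.000287) and ranked 241 of 15608 genes. It was highest at C4, where datasets 1 to 3 gave deviations of 0.27, 0.83 and 0.55 (0.55 ± 0.28). It was nearly as high at the neighbouring D4, with 0.23, 0.50 and 0.86. The values of these neighbours overlap, and their order is not resolved. Eef1a1 was lowest at E1, with -0.51, -0.68 and -1.16 (-0.78 ± 0.33). Each dataset was above 0 at C4 and D4 and below 0 at E1, with no overlap between the high and low positions. Other low positions were alike in all 3 datasets, among them E11 with -0.57, -0.38 and -0.44 and C1 with -0.48, -0.43 and -0.43. Some low means were set mostly by 1 array: G9 gave -0.16, 0.10 and -1.74, and A10, present in 2 datasets, gave -1.21 and -0.11. The highest and lowest positions of a gene, here and below, were picked from these same values, so their separation is largely fixed by that choice and is given as a description.

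**Figure D2:**
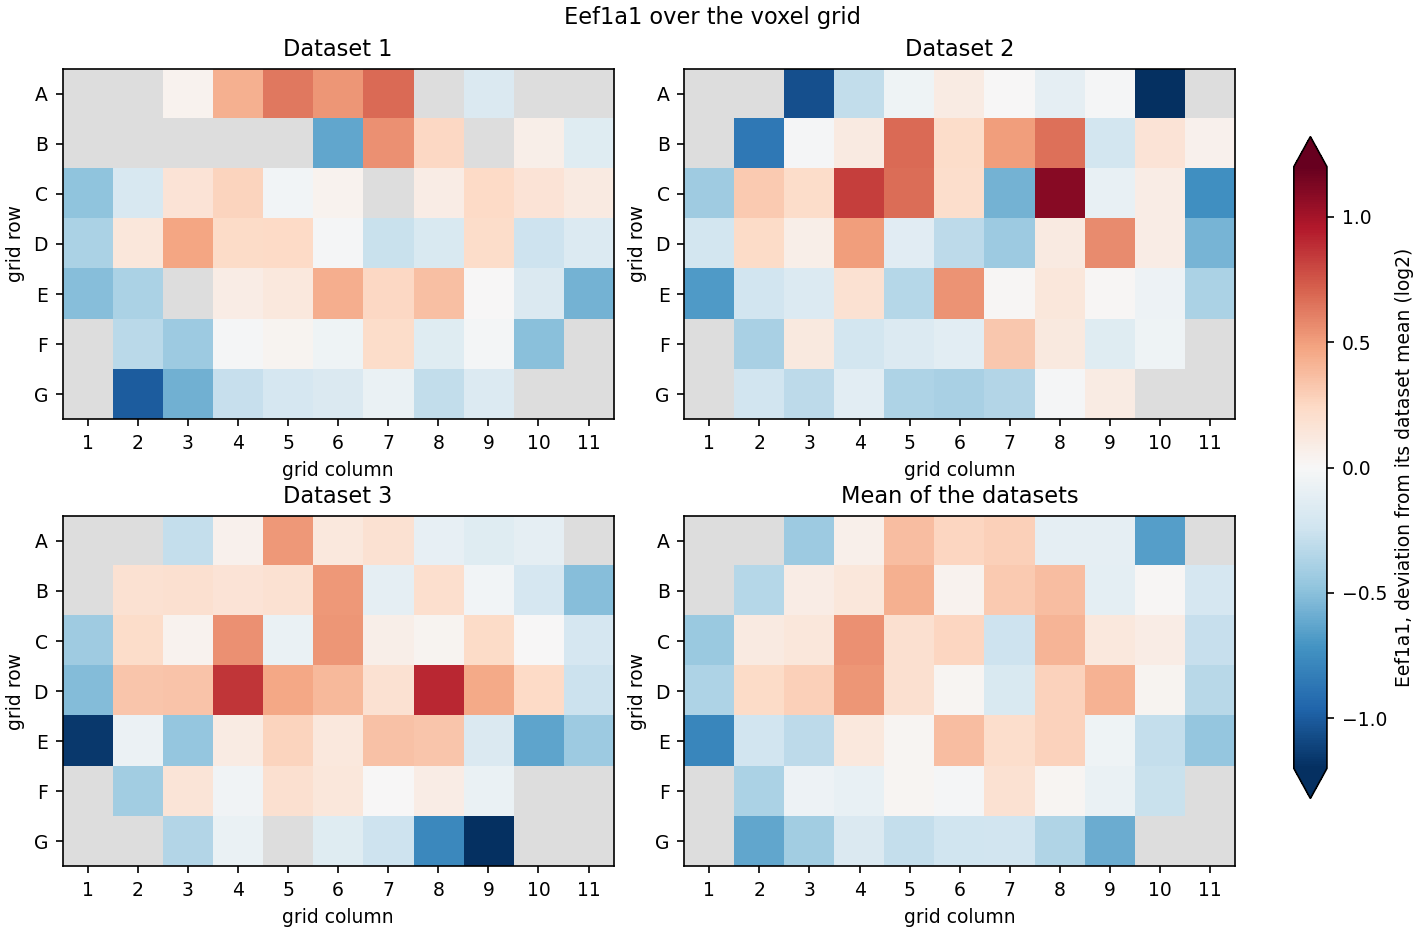
Colour gives the deviation of Eef1a1 from its dataset mean (log2) at each grid row and column, for each dataset and for their mean; grey squares have no array, and colours saturate beyond 1.2 on either side. The left edge (column 1) is blue in all 3 datasets, with E1 the lowest position of the mean map, and C4 and D4 are red in each.

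Along the columns Eef1a1 was low at both edges and high between them. Column 1 gave -0.46, -0.44 and -0.70 in datasets 1 to 3, and column 11 gave -0.19, -0.41 and -0.35. Column 4 gave 0.12, 0.14 and 0.23. Both edge columns were below 0 and column 4 above 0 in every dataset. Along the rows the lowest was G, with -0.35, -0.21 and -0.56, and rows B and C lay at 0.07 ± 0.06 and 0.09 ± 0.05. The row G value of dataset 3 includes G9 at -1.74 and G8 at -0.77, an array with 41.5% of values missing or at the floor. The mean of the 44 Eif genes over column 1 was -0.05 ± 0.07 and over column 11 was -0.06 ± 0.02; a mean over 44 genes varies less than 1 gene does. The maps of Eef1a1 in pairs of datasets had Spearman rho of 0.413, 0.485 and 0.454 over the shared positions, against a median over the members of 0.0243 for the average of these 3 values and 0.0325 over all genes. Eef1a1 was taken up for having the largest F of the members on these same arrays. That F rises when datasets are alike, so this contrast is largely fixed by the choice and is given as a description.

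**Figure D3:**
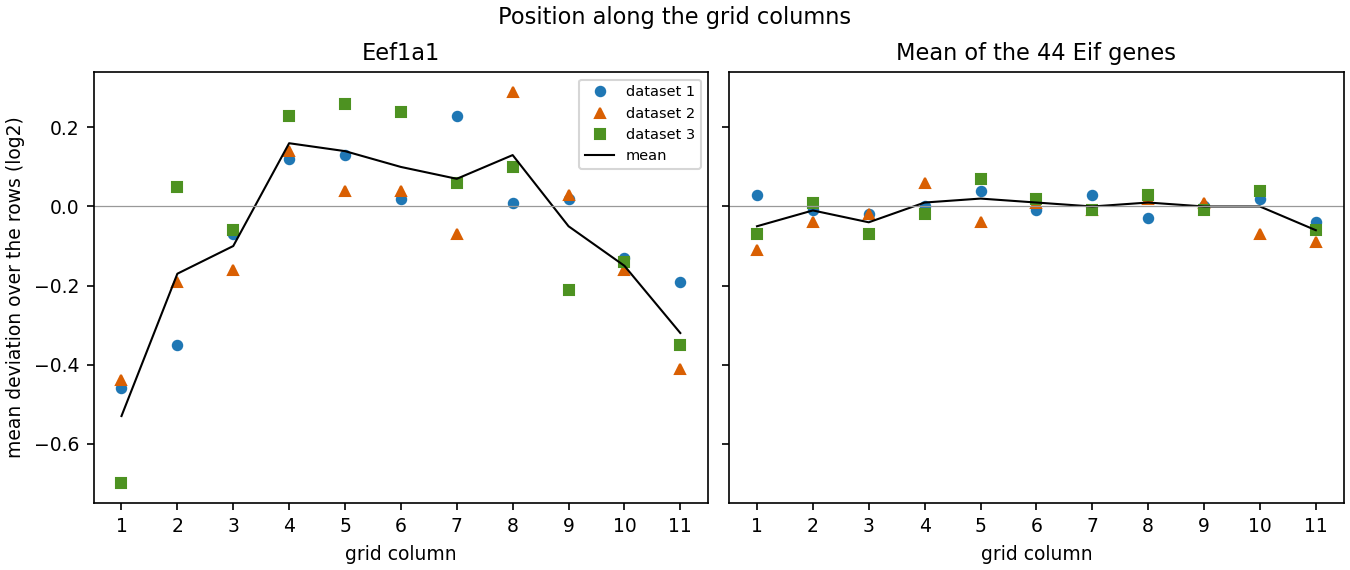
Mean deviation (log2, y axis) over the rows of each grid column (x axis) for Eef1a1 and for the mean of the 44 Eif genes; symbols are the datasets and the line is their mean. Eef1a1 runs from -0.53 in column 1 to 0.16 in column 4 and -0.32 in column 11, while the Eif mean stays between -0.06 and 0.02.

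Eef1a1 was read by 9 probes, a pair of which came from the same clone. With each probe tested on its own, 6 of the 9 were called, with F between 1.48 and 2.84, and the probes correlated with each other at 0.384 to 0.893 (median 0.617). Probes of one member usually did not follow each other: over the 33 members with several probes the median correlation was 0.0651. Cross-hybridisation of close relatives and processed copies of Eef1a1, a gene with many such copies, was not tested.

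Eef1b2, a nucleotide exchange subunit that recharges the Eef1a factor with GTP, also peaked at C4, with 0.66, 1.12 and 0.22 in datasets 1 to 3 (0.67 ± 0.45; F = 1.93, adjusted p = 0.0208). Its lowest position was C11, with -0.02, -0.93 and -0.88 (-0.61 ± 0.51). The high values did not overlap the low ones, but at C11 dataset 1 lay near 0 and apart from the other datasets. It was read by 1 probe.

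Eef1g, the scaffold subunit of the same exchange complex, was highest at B6, with 0.36, 0.33 and 0.56 (0.42 ± 0.13; F = 1.93, adjusted p = 0.0208). It was lowest at E1, as Eef1a1 was, with -0.64, -0.57 and -0.25 (-0.49 ± 0.21). Both positions kept their sign in every dataset. A low at E1 was not particular to elongation factors. It was also the lowest position of Eif3j1, Eif1b, Eif3a and Eif4b, and the mean of the Eif genes there was -0.15 ± 0.11. Of the 7 probes of Eef1g 4 were called on their own, and the correlations between them ran from -0.238 to 0.892.

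Eef2, the GTPase that moves the ribosome along the message, did not pass over all genes (F = 1.59, adjusted p = 0.169). It was highest at B5, present in 2 datasets, with 0.96 and 0.48, and at C4, with 0.37, 0.75 and 0.34. Its lowest position was G9, with -0.11, -0.61 and -0.78 (-0.50 ± 0.35). All of these values had the sign of their mean, and 1 of its 4 probes was called on its own.

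The maps of the 4 core elongation factors resembled each other more than those of the members at large. Over the 68 positions the 6 pairs among them had rho between 0.416 (Eef1b2 and Eef1g) and 0.732 (Eef1a1 and Eef2), with a median of 0.67. The median over all 1275 pairs of members was 0.0499. These maps share arrays, so any property of an array enters both sides of a correlation. Between datasets, which share no array, the mean map of the 4 genes had rho of 0.473, 0.311 and 0.284, against 0.0176, 0.0941 and 0.123 for the mean map of the Eif genes. Of the 4 genes 3 were called by the F test on these same data, and none of the Eif genes was. That test rewards likeness between datasets, so this contrast largely restates the calls and is no separate evidence.

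Among the initiation factors, those outside the called genes with the smallest p came from the eIF3 and eIF4 groups, and their values at the extreme positions varied widely between datasets. eIF3 is the large scaffold that binds the small ribosomal subunit. Of its 12 measured genes 2 (16.7%) had an unadjusted p under 0.05, against 13.3% of all genes. Its subunit Eif3i was highest at F4, with 0.68, 1.33 and 0.25 (0.75 ± 0.55), and lowest at A10, present in 2 datasets, with -1.14 and -0.69 (F = 1.69, adjusted p = 0.0984). At F4 dataset 2 was the highest and dataset 3 the lowest. Eif3j1, the loosely bound subunit, was also highest at F4, with 0.40, 0.99 and 0.76, and lowest at E1, with -0.80, -0.22 and -2.94 (F = 1.58, adjusted p = 0.175). Dataset 3 alone set most of that low mean.

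In the eIF4 group, which recruits the message through its cap, 9 genes were measured. Of these 2 (22.2%) had an unadjusted p under 0.05, against 13.3% of all genes, and a list this short cannot be told from that share. The cap-binding gene Eif4e was lowest at E5, with -0.23, -1.07 and -0.76, and highest at G9, with -0.21, 0.64 and 1.33 (F = 1.55, adjusted p = 0.203). In dataset 1 the values at these extremes were alike. The RNA helicase gene Eif4a1 was highest at F4, with 0.47, 1.88 and -0.03, and lowest at A3, with -0.87, -0.93 and -0.47 (F = 1.45, adjusted p = 0.321). The high mean at F4 was set mostly by dataset 2. F4 was an extreme position of members in both directions. It was also the highest of Eif3f and Eif4e3, and the lowest of Eif3m, Eif3c, Eif4a2, Eif4e2 and Eif4ebp2. The scaffold gene Eif4g3 was highest at D1, with 0.40, 0.15 and 1.34, and lowest at B6, with -0.99, -0.64 and -0.36 (F = 1.35, adjusted p = 0.46). Its lowest position, B6, was the highest of Eef1g.

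Of the genes for scanning and subunit joining, 0 of 6 had an unadjusted p under 0.05, against 13.3% of all genes. At that share lists as short as those in this paragraph hold few or no such genes, so a count of 0 does not set them apart. The smallest p was that of Eif1b, a relative of the start codon selection factor eIF1, which was highest at B6 (0.64, 0.09 and 0.39) and lowest at E1 (-0.83, 0.07 and -0.83; F = 1.33, adjusted p = 0.497). Dataset 2 hardly differed between them. The counts at an unadjusted p were 0 of 5 for initiator tRNA delivery (the eIF2 subunit genes Eif2s2, Eif2s3x and Eif2s3y, and the separate factors Eif2a and Eif2d), 0 of 5 for eIF2B, the exchange factor of eIF2, and 0 of 2 for the eIF2 kinases. They were also 0 of 2 for eIF4E-binding regulators, 0 of 3 for eIF5A and eIF6, and 0 of 3 for other genes named after elongation factors (Eef1e1, Eef2k and Eef2kmt). The members' median range of position means was 1.15 against 1.56 over all genes, and their median residual SD was 0.34 against 0.47.

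Maps of closely related initiation factor genes had rho between -0.254 and 0.178 over 8 pairs. Across the 68 positions rho was -0.254 for the helicase genes Eif4a1 and Eif4a2, -0.2 for the cap-binding genes Eif4e and Eif4e2, and -0.16 for Eif5a and Eif5a2. It was -0.0305 for Eif1a and Eif1ax, and 0.0161 for Eif2s3x and Eif2s3y, which lie on the X and Y chromosomes. The subunits of eIF2B had a median rho of 0.0202 over 10 pairs, and those of eIF3 of 0.159 over 66 pairs. Probes of a single member correlated at a median of only 0.0651, so a low rho does not show that related genes differ. Close relatives can also bind each other's probes, which was not tested.

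Zones of the grid were compared next, with the dataset as the replicate (n = 3, limma on 1 difference per dataset, two-sided, Benjamini-Hochberg over all genes). No member passed in any of the 4 comparisons. The first set rows A-B against rows F-G. Over all genes 0.109% were called there, and at an unadjusted p under 0.05 there were 0 members against 9.03% of all genes. Of the members 23 of 51 were higher in rows A-B (45.1%, against 45.4% of all genes), and 11 of 51 had the same sign in all 3 datasets against 32.5% of all genes. Eef1b2 had the most positive difference (0.29 ± 0.26, adjusted p = 0.59), with 0.43, 0.45 and -0.01 in datasets 1 to 3. Eif3e, a subunit of eIF3, and Eef1a1 were next, both at 0.26. The most negative were Eif3f (-0.40 ± 0.37), Eif3j1 (-0.29 ± 0.39) and the eIF2B subunit gene Eif2b3 (-0.28 ± 0.27).

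The middle columns 5-7 were set against the outer columns 1-3 and 9-11. In this comparison 0.0% of all genes were called, and 10 members (19.6%) had an unadjusted p under 0.05 against 13.2% of all genes. More members were higher in the middle, 34 of 51 (66.7%) against 49.6% of all genes, and 18 of 51 had the same sign in all 3 datasets against 38.1%. The most positive were Eif3h, another eIF3 subunit (0.30 ± 0.09, adjusted p = 0.247), Eif2s3x (0.29 ± 0.13, adjusted p = 0.256) and Eef1a1 (0.28 ± 0.09, adjusted p = 0.253). Eef1a1 gave 0.29, 0.18 and 0.37 in the 3 datasets, which is 1.22-fold on the ratio scale. All 3 datasets lay above 0 for each of these genes. Eef2 and Eef1g gave 0.22 ± 0.05 and 0.21 ± 0.08, and Eef1b2 gave 0.03 ± 0.17. The most negative were Eif4g3 (-0.21 ± 0.12), the heme-regulated eIF2 kinase gene Eif2ak1 (-0.20 ± 0.05) and Eif3c (-0.16 ± 0.13).

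The left and right sides of the grid, columns 1-5 against their mirror positions in columns 7-11, gave the smallest differences, with 0.0% of all genes called and 0 members at an unadjusted p under 0.05 against 3.34% of all genes. The sign was the same in all 3 datasets for 8 of 51 members and 24.0% of all genes. Member differences lay between -0.11 (Eif3e, and Eif2b3 next to it, then Eif4g3 at -0.10) and 0.13 (Eif5a2, followed by Eif6 and Eif2b4, both at 0.07). Eef1a1 did not lean to a side, with -0.03, -0.08 and 0.11.

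The 26 perimeter positions were set against the 42 interior ones. Here 0.109% of all genes were called, and 5 members (9.8%) had an unadjusted p under 0.05 against 13.4% of all genes. Of the members 15 of 51 members (29.4%) were higher on the perimeter, against 9060 of all 15608 genes, and 23 of 51 had the same sign in all 3 datasets against 36.7% of all genes. Eef1a1 had the most negative difference, with -0.21, -0.46 and -0.46 in datasets 1 to 3 (-0.38 ± 0.15, 1.30-fold lower, adjusted p = 0.207). Its 9 probes all lay below 0 there, from -0.44 to -0.29. Eif4a1 (-0.31 ± 0.07, adjusted p = 0.216) and Eif3i (-0.29 ± 0.24, adjusted p = 0.32) followed. All 3 datasets were below 0 for each of these genes and for Eef1b2, Eef1g and Eef2. The most positive were the eIF2 kinase genes Eif2ak1 (0.15 ± 0.11) and Eif2ak4 (0.14 ± 0.18), then Eif4g3 (0.12 ± 0.12). With only probes measured on every array, which left fewer genes to adjust over, Eef1a1 and Eif4a1 were called on the perimeter, and Eef1a1 and Eif3h in the middle columns. An effect that is called in one zone comparison and not in another was not tested for a difference.

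**Figure D4:**
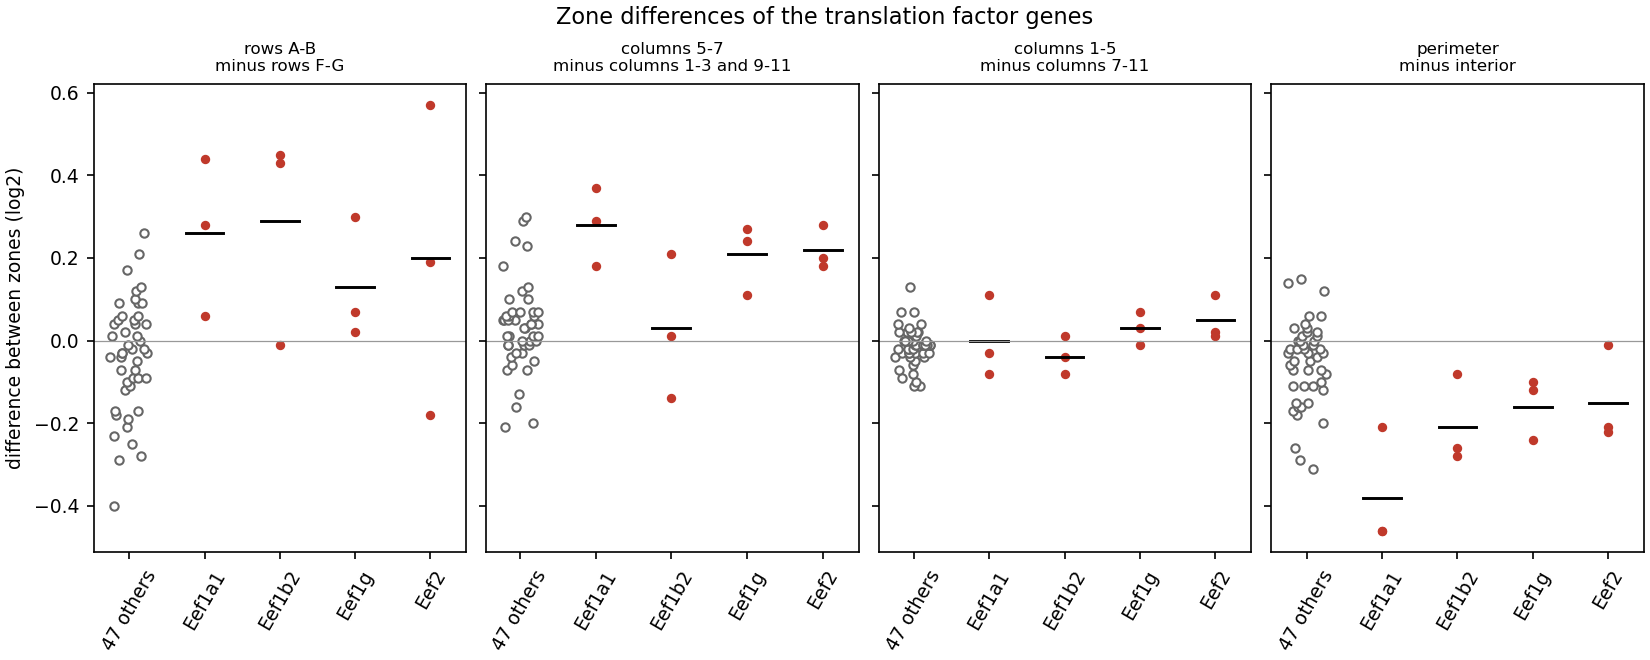
Difference between zones (log2, y axis) in the 4 zone comparisons. Open points are the 47 other members, each a mean over the 3 datasets; filled points are the 3 datasets of each core elongation factor and bars their means. Eef1a1 has the lowest mean of all members for perimeter minus interior, -0.38.

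Marker genes moved with the same zones. The 4 measured of 12 oligodendrocyte markers were all lower on the perimeter, with a list mean of -0.81 ± 0.14 and 3 called, and all higher in the middle columns (0.43 ± 0.08). That perimeter mean rested on Bcas1 (-1.19), Cryab (-1.16) and Qdpr (-0.76). The myelin gene Mbp differed little there (-0.12) and was not called among positions (F = 1.02). The 5 measured of 10 cortical markers were all higher on the perimeter, with a list mean of 0.29 ± 0.28, and were lower in rows A-B than in rows F-G by -1.53 ± 0.14 with 3 called. The 6 measured of 14 striatal markers had a mean of -0.48 ± 0.07 for perimeter minus interior, with 5 lower and 2 called, and were all lower in the middle columns (-0.79 ± 0.20), where Eef1a1 was higher. The 3 measured of 9 microglia markers were all lower on the perimeter (-0.26 ± 0.11). Across positions Eef1a1 had rho of 0.735 with the oligodendrocyte mean, 0.633 with the astrocyte mean (4 of 9 markers), -0.579 with the cortical mean, 0.461 with the microglia mean and 0.0798 with the striatal mean. These maps share arrays, and the rho values are given without a background over all genes. Centred values have no zero, so an absent marker cannot be read from them. The part of these cell types in the Eef1a1 map was not tested. Values missing or at the floor made up 3.56% on the perimeter and 1.74% in the interior, and their part was not tested either.

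The other genes of the translation machinery were compared by list. Of 75 cytosolic ribosomal protein genes 30 (40.0%) were called among positions, among them Rps6 (F = 3.79, adjusted p = 1.09e-08) and Rps9 (F = 3.26, adjusted p = 7.09e-07), with 0 called in each zone comparison. The share of all genes called was 4.92%, at which lists of 20 genes or fewer hold few or no called genes, so a count of 0 does not set them apart. The counts called were 0 of 20 measured aminoacyl-tRNA synthetases and helpers, which charge tRNAs, and 0 of 12 genes for release, recycling and poly(A) binding. They were 0 of 6 mitochondrial translation factors and 0 of 6 eIF2 phosphorylation targets. Of 10 measured genes in the list of mTOR and signal kinases 1 was called, and this was again Rps6, a target of the pathway. Among those not called, the ribosome recycling gene Abce1 had an adjusted p of 0.0815.

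The mean map of the ribosomal protein genes was set against those of the members. This map over the 68 positions had rho of 0.82 with Eef1a1, 0.758 with Eef1g, 0.687 with Eef1b2 and 0.574 with Eef2. For the Eif genes the median was 0.137, with Eif3i (0.701) and Eif2s2, an eIF2 subunit (0.65), at the top and Eif4g3 (-0.364) at the bottom. Over all genes the median was -0.0568, with 90% between -0.424 and 0.461. When the elongation factor mean of one dataset was set against the ribosomal mean of another, which share no array, rho was between 0.158 and 0.531. Within a dataset it was 0.452, 0.831 and 0.641.

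**Figure D5:**
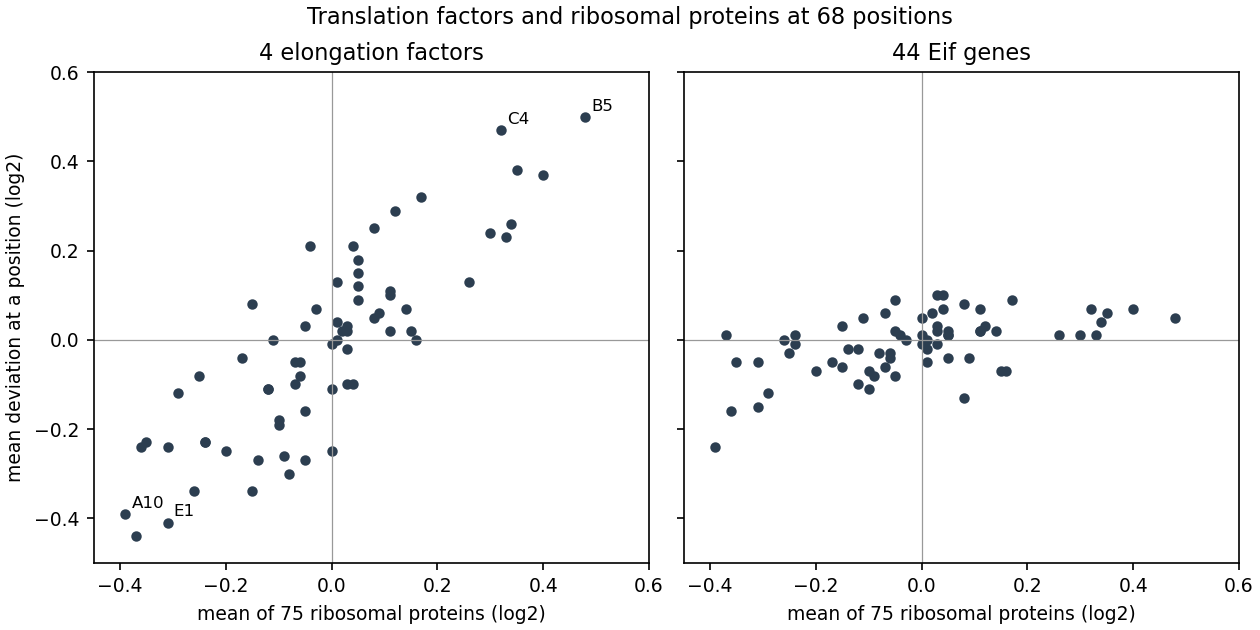
Each point is a grid position. The x axis is the mean deviation (log2) of 75 ribosomal protein genes and the y axis that of the 4 core elongation factors (left) or of the 44 Eif genes (right). The elongation factors rise with the ribosomal proteins from A10 and E1 to C4 and B5, and the Eif means span -0.24 to 0.10.

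By likeness of maps over the 68 positions, the non-member genes closest to Eef1a1 were Rps6 (rho = 0.918), Rps9 (0.913) and Rpl3 (0.906). Those closest to Eef1b2 were Naca (0.832), a ribosome-associated chaperone subunit, the proteasome gene Psmb1 (0.822) and Chmp2a (0.818). Eef1g was closest to Rpl3 (0.824), Rpl10 (0.794) and Maged1 (0.791). The mean map of all 51 members was closest to Ube2l3 (0.837), a ubiquitin-conjugating enzyme, then to Rpl3 (0.764), Cox7a2l (0.726), Canx (0.722) and Cct7 (0.72).

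Most calls changed when a dataset was left out. The p-values of the F test rest on how arrays of the same position varied, after the dataset means were removed. They count the arrays of a harvest as independent, although these shared deviations, so they may be too small. Only the p-values of the zone comparisons rest on the spread between whole harvests. Without dataset 2 none of the members was called and without dataset 1 only Eif4e was (adjusted p = 0.0254), while without dataset 3 the calls were Eef1a1 (adjusted p = 0.035) and Eif4a1 (adjusted p = 0.0211). Without the dataset as a block Eef1a1 alone was called (adjusted p = 0.00761), and over the positions present in all datasets Eef1g missed the threshold (adjusted p = 0.0516). With each probe on its own Eef2 and Eif4e also had a called probe, and with array weights Eef2, Eif3i and Eif4e were called as well.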

How the data were processed

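The authors deposited 1 table of log2 ratios of voxel and whole brain RNA, 20847 probes by 59, 68 and 65 arrays of datasets 1 to 3, with each probe centred on its median (99.9% of medians within 0.001 of 0). How arrays were scanned and normalized is not given in the sources used here. Values at the floor of -6.64 (0.483%) were set to missing, 1.93% having been missing already. The 20 control rows were left out, and each array was centred on the median of the probes measured on every array (largest shift 0.353). Probes had to be measured on 80% or more of each dataset's arrays, and probes of 1 symbol in the platform annotation were averaged. Arrays give no read depth, so their number limits the precision.

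Tests used limma 3.58.1 in R 4.3.3 at an adjusted p of 0.05. Differences among positions were tested by a moderated F with the dataset as a block, since the labels name the datasets as independent harvests, so the numbers pair the arrays; arrays of a dataset shared deviations (median correlation 0.18, 0.26 and 0.257). In simulated data 100 genes at each size were shifted throughout rows A and B, with noise drawn independently for each array. The F test recovered 29% of shifts of 0.5 and 85% of shifts of 1. The test of rows A-B against rows F-G recovered 14% and 93%. The simulation left out the deviations that arrays of a dataset share, so these shares may be too high for the real data. A shift at a single position was not simulated. Members and lists were chosen with earlier results of these data known. Members named in full are the 10 with the smallest p, and in each zone comparison the 3 at either end.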

Additional observations from a re-analysis of the deposited data

How the results depend on the processing

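The choices tried were quantile normalization, no array centring, floor values kept, other filters on missing values, limited extremes, single probes, the doubted arrays left out, only shared positions, each dataset left out, no replicate block and array weights. Across these, the count of members called among positions was 3 in the main analysis, 5 with each probe on its own, 6 with array weights and 1 with no replicate block, and from 0 to 2 with 1 dataset left out. The count over all genes was 768, 1165 with quantile normalization, 2543 with array weights, 366 with no replicate block and from 214 to 529 with 1 dataset left out. In the zone comparisons 0 members were called, except for 2 in the middle columns and 2 on the perimeter with probes measured on every array. The mean of the members for the middle columns was 0.04 ± 0.01 in the main analysis. It was 0.05 with no array centring, with floor values kept, with probes measured on every array and without the row D arrays, 0.03 over shared positions, and from 0.03 to 0.05 with 1 dataset left out. The cause of these shifts was not tested. The block changed no other call given here for members. With 2 datasets left, fewer arrays enter each position. Array weights were not run for the zones, and the depth of signal over background is unknown for these values.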
